A study of Phaseolus vulgaris with 18 samples.

Results

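Phvul.007G138300 and Phvul.008G144500 are the 2 oleosin genes that gave most of the oleosin transcript in grain of the common bean, Phaseolus vulgaris. They were chosen by identifier, as 2 of the 27420 genes in the deposited table. The table describes Phvul.007G138300 as OLE1 or oleosin 1 and Phvul.008G144500 as an oleosin family protein. RNA sequencing covered grain at 10, 15 and 20 DAF and pod at the same stages, all from plants titled 4004. DAF is not spelled out in the labels and is read here as days after flowering. The design gave 3 libraries to each of 6 groups, or 18 libraries, and the labels name no treatment or mutation. Nothing in the labels tells if libraries of the same group stem from different plants, so a p-value here reflects the spread among the sequenced samples, which may be technical. Values are TPM, transcript abundance per length and per library, so levels of different genes can be set side by side.

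Oleosins are small structural proteins of seed oil bodies, the droplets in which embryos store triacylglycerol. A long hydrophobic hairpin anchors the protein in the droplet, and the coat of oleosins keeps droplets small and separate while the seed dries and germinates. Caleosins and steroleosins, the last of these annotated as hydroxysteroid dehydrogenases (HSD), share the droplet surface, and seipins act where droplets form at the endoplasmic reticulum. Bean grain stores mainly starch and the protein phaseolin, a cupin, and comparatively little oil.

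Storage cupins and an AGL8 gene separated the tissues as labelled, while the SHATTERPROOF genes did so only in part, and 3 libraries stood somewhat apart. The 8 storage cupin genes described as PAP85 or CRA1 summed to 157 TPM or more in every grain library and to 15.2 to 72.6 TPM in the pods. Phvul.009G203400, described as AGL8 or FUL, a MADS-box regulator of fruit wall development, was at 0.057 to 1.13 TPM in grain and at 48.1 to 111 TPM in pods. The 3 SHATTERPROOF genes, also regulators of fruit patterning, overlapped at 10 DAF, with 34.2 to 79.7 TPM in grain and 28.9 to 126 TPM in pods. Phvul.006G034300 and Phvul.006G034400 overlapped at 15 and 20 DAF as well, while Phvul.008G190600 was higher in every pod than in every grain library there. Columns summed to 823001 to 999633 TPM, except for pod 15 DAF replicate 3 at 436072. That library, pod 10 DAF c2 and grain 20 DAF replicate 3 stood apart, the last pair because each had its highest correlation with a library of another stage. The pod 10 DAF libraries are called c1, c2 and c3, because their columns do not carry the numbers of their titles. The depth behind each value is unknown, since TPM does not keep it.

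Both oleosins rose strongly through grain filling. Phvul.007G138300 was at 179, 432 and 444 TPM in grain at 10 DAF, at 1853, 1282 and 1672 TPM at 15 DAF, and at 4432, 3911 and 3327 TPM at 20 DAF. Phvul.008G144500 was at 96.8, 203 and 224 TPM in grain at 10 DAF, at 1655, 1190 and 1120 TPM at 15 DAF, and at 3024, 3216 and 2582 TPM at 20 DAF. For both genes the libraries of the 3 grain stages did not overlap, and the lowest library of all was grain 10 DAF replicate 1. The share of all genes whose stages separate in this way, in grain or in pods, was not counted. Group means of Phvul.007G138300 were 352 ± 149, 1602 ± 292 and 3890 ± 553 TPM at 10, 15 and 20 DAF (SD, n = 3 each). Those of Phvul.008G144500 were 175 ± 68.3, 1322 ± 291 and 2941 ± 325 TPM (SD, n = 3 each).

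**Figure D1:**
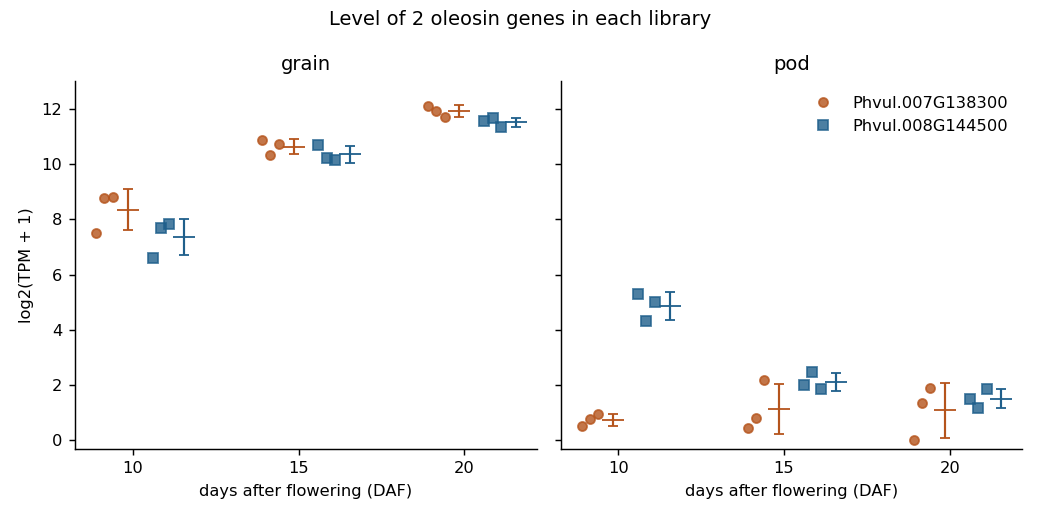
Level of the 2 oleosins, as log2(TPM + 1), in each of the 18 libraries (points) by stage, grain in the left panel and pod in the right one, with the mean of the 3 log2 values and its SD beside the points. Grain points of both genes lay between 96.8 and 4432 TPM and were higher at each later stage, whereas pod points of Phvul.008G144500 lay between 18.8 and 38.3 TPM at 10 DAF and under 5 TPM later.

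At 20 DAF both genes stood among the most abundant transcripts of the grain. Out of 27420 genes, Phvul.007G138300 ranked between 385 and 970 at 10 DAF, between 32 and 55 at 15 DAF and between 21 and 26 at 20 DAF. Phvul.008G144500 ranked between 775 and 1717, between 46 and 58 and between 29 and 32 at the same stages. Together the 2 genes took between 0.0282% and 0.0693% of the summed TPM of a grain library at 10 DAF, between 0.274% and 0.352% at 15 DAF and between 0.591% and 0.766% at 20 DAF.

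Differences were tested with limma on log2(TPM + 1) over 19861 genes that reached 1 TPM in 3 libraries, and a gene was called at an adjusted p under 0.05 with a log2 difference of at least 1. Phvul.007G138300 was 11.9-fold higher in grain at 20 DAF than at 10 DAF on that scale (log2 difference 3.57, SE 0.47, adjusted p = 6.6e-06). Phvul.008G144500 was 17.8-fold higher (log2 difference 4.15, SE 0.35, adjusted p = 3.37e-08). Both genes were called, against 2.67% of all genes tested that were called higher in this comparison.

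The step between 10 and 15 DAF was called for both genes. Phvul.007G138300 was 4.86-fold higher at 15 DAF than at 10 DAF (log2 difference 2.28, adjusted p = 0.001) and Phvul.008G144500 7.90-fold higher (log2 difference 2.98, adjusted p = 4.18e-06), where 1.91% of genes were called higher and 34.4% lower. For the step between 15 and 20 DAF neither gene passed. Phvul.007G138300 differed by 1.29 on the log2 scale at 20 DAF against 15 DAF, with a 95% interval of 0.29 to 2.28 (unadjusted p = 0.0141, adjusted p = 0.117). Phvul.008G144500 differed by 1.17, with an interval of 0.44 to 1.89 (unadjusted p = 0.00322, adjusted p = 0.0514), with 0.896% of genes called higher and 5.05% lower. In this step the call for Phvul.008G144500 depended on the scaling: after median-ratio scaling the difference was 1.59 and passed (adjusted p = 0.0122, with 2.62% of genes called higher), while that of Phvul.007G138300, at 1.71, did not (adjusted p = 0.0523).

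Many grain genes were lower on the deposited scale in older grain. Over all genes tested the median log2 difference stood at -1.08 in grain at 20 DAF against 10 DAF, and 52.9% were called lower. After median-ratio scaling, which divides each library by its median ratio over 11276 genes, the median was -0.11, with 8.39% called higher and 16.7% called lower. On that scale the oleosins differed by 4.87 and 5.45 on the log2 scale (adjusted p = 4.7e-06 for Phvul.007G138300 and 4.56e-08 for Phvul.008G144500). In bulk grain, more cells of a type and more RNA per cell cannot be told apart.

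Summed seed coat transcripts were lower in older grain in the same libraries. The 47 genes whose symbols are BAN, AHA10 or of the TRANSPARENT TESTA series, which act in seed coat pigment synthesis, summed in grain to between 1572 and 6334 TPM at 10 DAF, between 445 and 1393 TPM at 15 DAF and between 143 and 469 TPM at 20 DAF, with 9 to 15 of the 47 at 0 in a library. Of 31 tested, 19 were called lower at 20 DAF against 10 DAF and none higher by limma, also at an unadjusted p under 0.05, where 52.9% of all genes were called lower, and after median-ratio scaling 13 were lower and 1 higher (16.7% and 8.39% of all genes). Flavanone 3-hydroxylase (F3H, Phvul.003G261900), an early enzyme of flavonoid synthesis, alone gave 3173 of the 6334 TPM in the highest library. BAN (Phvul.002G218700), the anthocyanidin reductase of the coat, was at 602, 185 and 203 TPM in grain at 10 DAF and at 4.82, 7.05 and 22.8 TPM at 20 DAF. Grain 10 DAF replicate 1, lowest in both oleosins, was highest in the coat genes (6334 TPM, against 1572 and 2029 TPM) and lowest in the cupins (157 TPM, against 1209 and 2274 TPM). The part of tissue proportions in the oleosin differences was not tested. Without that library the grain difference of 20 DAF against 10 DAF was 3.14 for Phvul.007G138300 and 3.77 for Phvul.008G144500, both still called.

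The proportion between the 2 genes shifted during grain filling. The ratio of Phvul.007G138300 to Phvul.008G144500 was 1.85, 2.13 and 1.98 in grain at 10 DAF, 1.12, 1.08 and 1.49 at 15 DAF, and 1.47, 1.22 and 1.29 at 20 DAF. Every 10 DAF library lay above every later one, and the 15 and 20 DAF libraries overlapped. Mean log2 ratios were 0.98, 0.28 and 0.40 at the 3 stages, and the span of 0.70 between the largest and the smallest passed an exact permutation test over 1680 assignments of the 9 libraries (p = 0.0214, smallest possible 0.00357). A plain ratio within a library does not depend on how the library is scaled. The log2 ratios had 1 TPM added to each gene, so this holds for them only nearly. With 0.1 TPM added the span in grain was 0.71 (exact p = 0.0214). The call was lost when grain 15 DAF replicate 1 or 2, or any 1 of the 20 DAF grain libraries, was left out, with spans of 0.614 to 0.849 over the 9 grain libraries left out in turn (exact p = 0.00714 to 0.1).

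**Figure D2:**
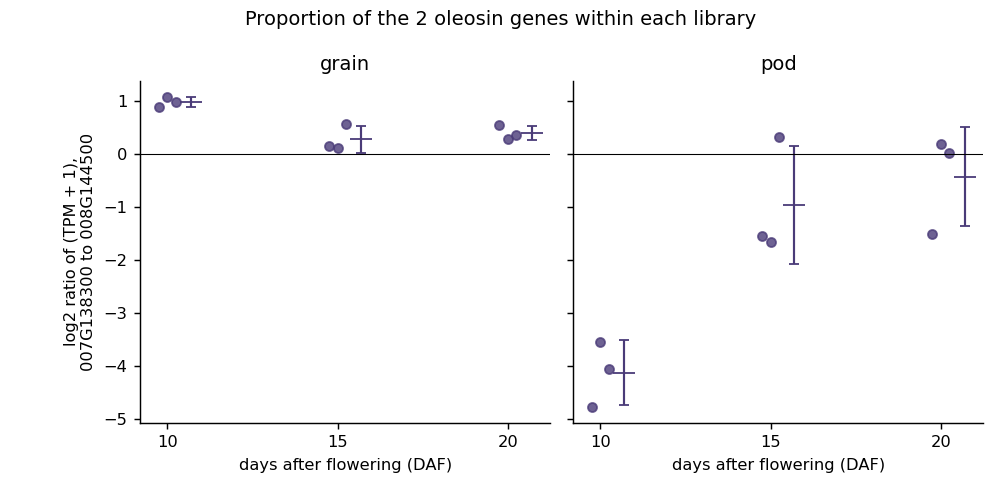
Log2 ratio of Phvul.007G138300 to Phvul.008G144500, with 1 TPM added to each, in every library (points), by stage, for grain (left) and pod (right), with the mean and SD of 3 libraries beside the points. The grain ratios were all above 0 and highest at 10 DAF, the 3 pod ratios at 10 DAF lay between -4.78 and -3.54, and the later pod ratios lay between -1.66 and 0.32.

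Both genes were far higher in grain than in pod at each stage. At 10 DAF the log2 difference was 7.60 for Phvul.007G138300 (adjusted p = 4.61e-10) and 2.49 for Phvul.008G144500 (adjusted p = 1.14e-05), where 17.8% of genes were called higher in grain. At 15 DAF it was 9.49 (adjusted p = 3.32e-11) for Phvul.007G138300 and 8.24 (adjusted p = 5.93e-12) for Phvul.008G144500, with 8.93% of genes called higher. At 20 DAF it was 10.83 (adjusted p = 6.24e-12) for Phvul.007G138300 and 10.00 (adjusted p = 7.92e-13) for Phvul.008G144500, with 6.25% called higher. The added 1 TPM shrinks these differences, since several pod values lay near or under it.

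In pods the 2 oleosins parted. Phvul.008G144500 was at 38.3, 18.8 and 31.3 TPM in pods at 10 DAF (c1, c2 and c3), at 3.00, 4.52 and 2.62 TPM at 15 DAF, and at 1.84, 1.25 and 2.68 TPM at 20 DAF. All young pods lay above all older ones, and the 15 and 20 DAF pods overlapped. Its means were 29.5 ± 9.92, 3.38 ± 1.00 and 1.92 ± 0.718 TPM at 10, 15 and 20 DAF (SD, n = 3 each), and it ranked between 3847 and 7414 of the 27420 genes in young pods. It was 10.2-fold lower in pods at 20 DAF than at 10 DAF (log2 difference -3.35, SE 0.35, adjusted p = 5.3e-06), where 6.72% of genes were called lower.

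The fall of Phvul.008G144500 in pods was already present at 15 DAF. It was 6.80-fold lower there than at 10 DAF (log2 difference -2.77, adjusted p = 0.000115), where 5.25% of genes were called lower and 1.51% higher. These shares depended on pod 15 DAF replicate 3, the library with the low column sum. Without it 591 of 19847 genes were called lower and 738 higher. Fitted with limma on the 10 and 15 DAF pods alone, the log2 difference of -2.77 had an adjusted p of 0.106. In that fit 0 of 19861 genes were called in either direction. Between 20 and 15 DAF Phvul.008G144500 differed by -0.59, with an interval of -1.31 to 0.14 (adjusted p = 0.367), where 0.519% of genes were called lower and 1.11% higher. Without pod 15 DAF replicate 3, 179 genes were called lower and 79 higher in that step.

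Phvul.007G138300 stayed near the lower end of the scale in every pod. It was at 0.431, 0.693 and 0.951 TPM at 10 DAF, at 0.364, 0.742 and 3.52 TPM at 15 DAF, and at 1.58 and 2.75 TPM at 20 DAF, with the remaining library listed at 0. The 3 pod stages overlapped throughout. Its log2 difference in pods at 20 DAF against 10 DAF was 0.34, with an interval of -0.65 to 1.34 (adjusted p = 0.718). The highest value, 3.52 TPM, came from pod 15 DAF replicate 3, the library with the low column sum, where the cupins took the largest share of the column sum among the pods, 0.0167%, against 0.00154% to 0.00728% in the other 8. The part of grain material in that value was not tested.

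Storage cupin transcripts in pods did not fall with Phvul.008G144500. The 8 storage cupins summed to 27.8, 15.2 and 72.2 TPM in c1, c2 and c3 of the 10 DAF pods, to 15.5, 30.5 and 72.6 TPM at 15 DAF and to 22.3, 26.1 and 47.2 TPM at 20 DAF, all detected in every pod. None of the 8 was called by limma in pods at 20 DAF against 10 DAF, nor were any past an unadjusted p of 0.05 with that size of difference, and their median log2 difference was 0.01, against 0.10 over all genes. In grain the same sum averaged 1214, 105907 and 119098 TPM at 10, 15 and 20 DAF. A similar cupin sum in pods of different stages therefore does not give their content of grain material, which was not tested. Seed coat genes summed to 734, 384 and 875 TPM in the 10 DAF pods, against 366, 253 and 143 TPM at 15 DAF and 183, 4352 and 286 TPM at 20 DAF, with 18 to 27 of the 47 at 0. Every later pod but pod 20 DAF replicate 2 thus lay below all young pods in this sum. The chalcone synthase Phvul.001G083000, which starts flavonoid synthesis, gave most of the young pod sums, with 558, 218 and 696 TPM. It gave 187, 83.2 and 79.2 TPM at 15 DAF and 3.4, 5.12 and 52.7 TPM at 20 DAF. At 10 DAF this gene averaged 491 TPM in pods and 225 TPM in grain, so it did not mark seed coat alone. A chalcone isomerase (Phvul.007G008600) gave 1487 TPM of the 4352 TPM. Per gene, 1 of 31 tested, that chalcone synthase, was called lower at 20 DAF against 10 DAF and 2 higher, against 6.72% and 5.38% of all genes (median 0.04). BAN stood at 1.17, 0.194 and 0.998 TPM in the young pods and was listed at 0 in all 3 pods at 20 DAF. The part of seed coat material in the pod values of Phvul.008G144500 was not tested.

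The 3 lists of pod wall genes took different courses in pods. Of the light-harvesting proteins, which bind chlorophyll in green tissue, most fell with Phvul.008G144500. Their 30 genes summed in pods to between 13681 and 35141 TPM at 10 DAF, between 7331 and 14722 TPM at 15 DAF and between 2993 and 10044 TPM at 20 DAF, and 22 of 30 were called lower at 20 DAF against 10 DAF, where 6.72% of all genes were called lower. The 8 secondary wall cellulose synthases, which build fibre and vessel walls, summed to between 32.0 and 150 TPM at 10 DAF, between 138 and 443 TPM at 15 DAF and between 120 and 251 TPM at 20 DAF. Of their 5 tested genes, 1 was called higher at 20 DAF against 10 DAF (5.38% of all genes) and 2 at 15 DAF against 10 DAF (1.51% of all genes), and none lower. The 4 tested genes of the AGL8 and SHATTERPROOF group, fruit patterning regulators, had a median difference of -0.17 and no calls at either p. What share of the pod difference goes with the make-up of the pod sample was not tested.

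The ratio of the 2 genes measured the same contrast within each library. It was between 0.0112 and 0.0369 in pods at 10 DAF, and its mean log2 value, with 1 TPM added, was -4.13, -0.97 and -0.43 at 10, 15 and 20 DAF. The span of 3.70 passed the exact permutation test (p = 0.025). It did not pass with 0.1 TPM added (3.91, exact p = 0.132), with Phvul.007G138300 near 0 in most pods, nor without pod 15 DAF replicate 1 or 2 or pod 20 DAF replicate 2 or 3 (spans of 3.37 to 4.24 over the libraries left out). Averaged over the 3 stages the log2 ratio was 2.40 higher in grain than in pod (exact permutation test with tissue exchanged within each stage, 8000 assignments, p = 0.0015). With 0.1 TPM added this value was 3.26. The gap was widest at 10 DAF, as the grain means were 0.98, 0.28 and 0.40. At 15 DAF the tissues overlapped, with pod replicate 3 at 0.32 and grain replicates 1 and 2 at 0.16 and 0.11.

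The stage difference itself differed between the tissues for both genes. The log2 difference of 20 DAF against 10 DAF was larger in grain than in pod by 3.22 for Phvul.007G138300 (SE 0.67, adjusted p = 0.00108) and by 7.50 for Phvul.008G144500 (SE 0.49, adjusted p = 1.67e-08), where 3.69% of genes had a difference called higher in grain. Without the 3 libraries that stood apart, an alternative chosen after seeing the data, these values were 3.32 and 7.88, the grain differences of 20 DAF against 10 DAF 3.67 and 4.24 and the pod difference of Phvul.008G144500 -3.64, all still called. These comparisons share libraries with those of the stages and of the tissues given above, so they are not separate evidence.

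An oleosin description was carried by 4 genes, and the make-up of their sum changed with tissue and stage. The 2 main genes gave between 76.1% and 91.7% of the summed oleosin TPM in grain at 10 DAF, between 79.5% and 80.4% at 15 DAF and between 81.8% and 84.3% at 20 DAF. In pods they gave 68.5% to 89.4% at 10 DAF, nearly all of it Phvul.008G144500 with 66.5% to 88.4%. The share of the pair was 18.2% to 65.3% in pods at 15 DAF and 2.20% to 14.7% at 20 DAF. The gene in their place in old pods was Phvul.003G177800, with 82.0% to 96.8% of oleosin TPM at 20 DAF.

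**Figure D3:**
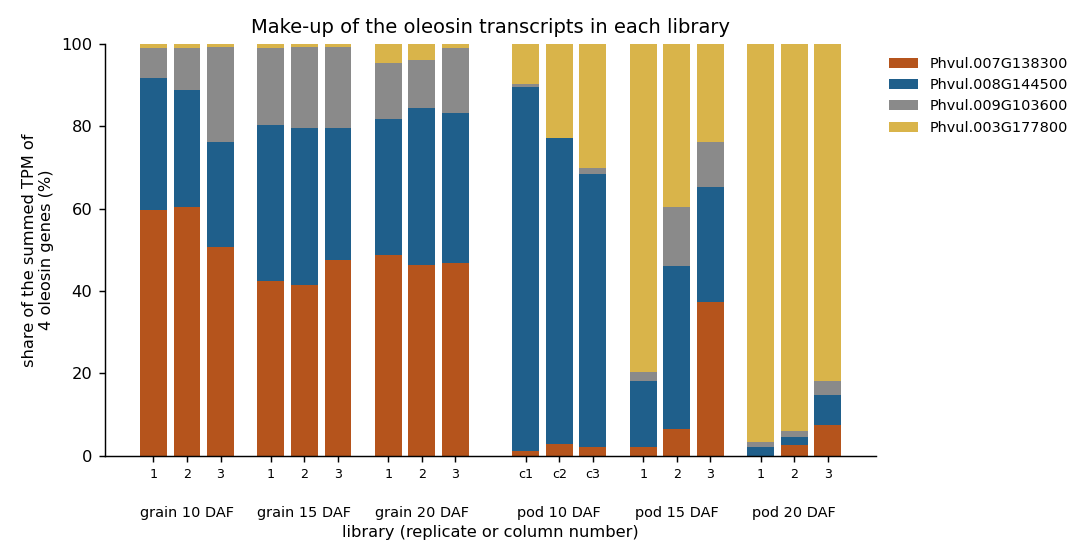
Percent of the summed TPM of the 4 oleosin genes given by each of them, 1 bar per library (from 0 to 100%), with the 9 grain libraries left of the 9 pod libraries. The 2 main genes filled at least 76.1% of every grain bar, Phvul.008G144500 most of each young pod bar, and Phvul.003G177800 at least 82.0% of each pod bar at 20 DAF.

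The other oleosins followed different courses. Phvul.009G103600 correlated with Phvul.007G138300 at r = 0.987 over the 18 libraries. It was at 21.8, 74.2 and 204 TPM in grain at 10 DAF, at 808, 606 and 696 TPM at 15 DAF and at 1242, 1002 and 1123 TPM at 20 DAF, and at no more than 1.66 TPM in any pod. It was higher in grain at 20 DAF than at 10 DAF by 3.99 on the log2 scale (adjusted p = 4.1e-06). Phvul.003G177800 was the late one, at 3.16, 6.26 and 5.77 TPM in grain at 10 DAF, 46.3, 24.8 and 22.6 TPM at 15 DAF and 417, 322 and 66.3 TPM at 20 DAF. It rose in grain by 5.15 (adjusted p = 3.13e-06).

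Phvul.003G177800 moved in pods in the opposite direction to Phvul.008G144500. It was at 4.24, 5.76 and 14.2 TPM in pods at 10 DAF, 14.7, 4.53 and 2.25 TPM at 15 DAF and 80.9, 60.3 and 30.3 TPM at 20 DAF, so the oldest pods lay above all others. Its log2 difference in pods at 20 DAF against 10 DAF was 2.73 (SE 0.64, adjusted p = 0.0068), where 5.38% of genes were called higher. Reads shared between oleosin copies could not be examined in TPM, so the level of any single copy is uncertain to that extent.

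Among the wider set of oil body genes, those called higher in older grain on the deposited scale were oleosins and caleosins. The list held 20 genes matched by description, of which 19 were tested and 3 never reached 5 TPM in a group mean. In grain at 20 DAF against 10 DAF, 6 of the 19 were called higher and 5 lower, against 2.67% and 52.9% of all genes, with a median log2 difference of 0.26 against -1.08 over all genes. Without the 2 main oleosins, 4 of 17 were called higher and 5 lower, and the median was -0.28. On the median-ratio scale 9 of 19 were called higher and 1 lower, against 8.39% and 16.7% of all genes (median 1.47, against -0.11 over all genes), so the counts depended on the scale.

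The 4 other genes called higher on the deposited scale were the oleosins Phvul.009G103600 and Phvul.003G177800 and 2 caleosins. Phvul.L002344, described as CLO1 or seed gene 1, a calcium-binding caleosin of the droplet surface, was at 3.23, 4.196 and 14.2 TPM in grain at 10 DAF, 179, 112 and 95.1 TPM at 15 DAF and 734, 563 and 383 TPM at 20 DAF. Its log2 difference of 6.29 at 20 DAF against 10 DAF (SE 0.40, adjusted p = 2.1e-09) exceeded those of the 4 oleosins, although that excess was not tested. The caleosin-related Phvul.003G020800 averaged 10.9 ± 5.22 TPM at 20 DAF and 2.23 ± 1.54 TPM at 10 DAF (SD, n = 3 each) and rose by 1.91 (adjusted p = 0.00514).

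The genes that fell on the deposited scale were 3 described as HSD1, the steroleosin-type dehydrogenases, 1 rubber elongation factor (REF) protein, a family with lipid-droplet-associated members, and the acyltransferase Phvul.002G136600. Phvul.002G285000 averaged 3.69 ± 1.44 TPM in grain at 20 DAF, against 10.5 ± 3.99 TPM at 10 DAF, and fell by 1.27 on the log2 scale (adjusted p = 0.00237). Phvul.002G285100 and Phvul.002G285200 differed by -1.85 and -1.92. The acyltransferase, described as ACT1 or ATS1, is a plastid enzyme that shares the symbol ATS1 with the caleosin and is not a droplet protein. It differed by -1.14 (adjusted p = 0.028). Of these 5 genes, Phvul.002G285100 alone was still called lower after median-ratio scaling, at -1.28 (adjusted p = 0.00877). It is a low gene, with 0.448 ± 0.552 TPM at 20 DAF and 4.16 ± 1.51 TPM at 10 DAF (SD, n = 3 each), and is named here after its values were seen.

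**Figure D4:**
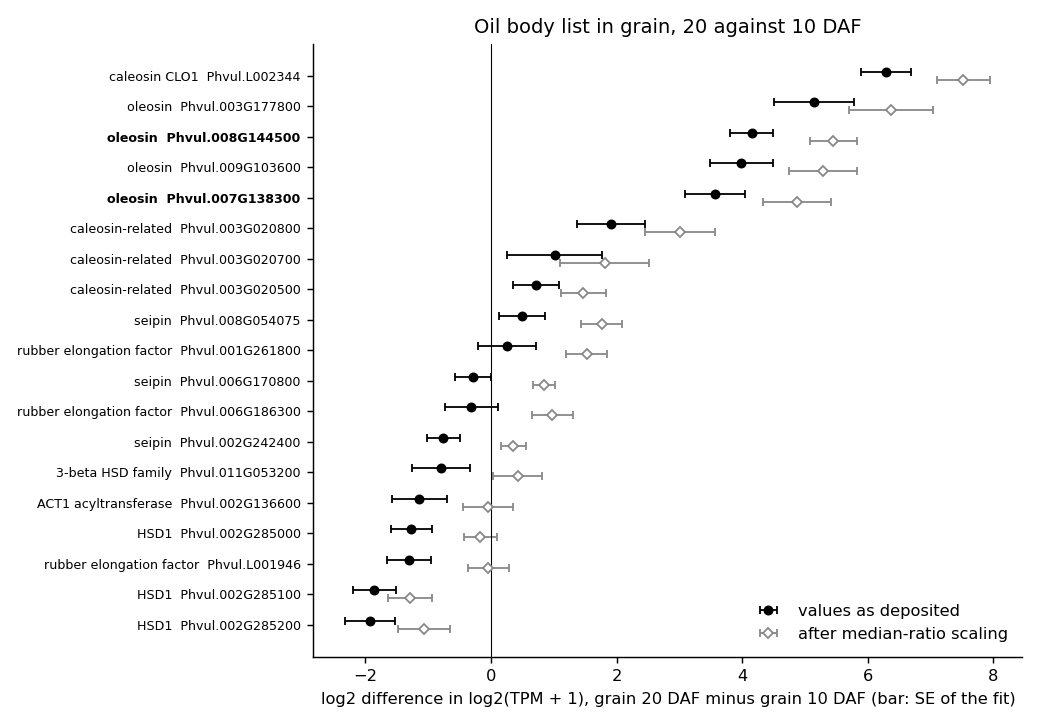
Log2 difference in grain at 20 DAF against 10 DAF, with its standard error, for the tested oil body genes as deposited and after median-ratio scaling. The 4 oleosins and the caleosin Phvul.L002344 lay between 3.57 and 6.29 as deposited, above the other members, and the scaling moved all of them upward.

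Seipin and REF members followed other courses. The seipin Phvul.008G054075 averaged 35.4 ± 19.0, 67.9 ± 10.9 and 45.4 ± 11.0 TPM in grain at 10, 15 and 20 DAF (SD, n = 3 each) and did not exceed 1.12 TPM in any pod. It was called higher in grain at 15 DAF than at 10 DAF (log2 difference 1.08, adjusted p = 0.0219). The 2 other seipins, Phvul.002G242400 and Phvul.006G170800, had group means between 4.13 and 9.18 TPM in both tissues and no call in grain at 20 DAF against 10 DAF, with differences of -0.76 and -0.28.

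REF Phvul.L001946 averaged 64.7 ± 21.6, 127 ± 25.8 and 27.2 ± 14.3 TPM in grain at 10, 15 and 20 DAF, and 17.4 ± 3.12, 5.79 ± 1.02 and 3.36 ± 0.690 TPM in pods (SD, n = 3 each). It fell in pods at 20 DAF against 10 DAF by 2.08 on the log2 scale (adjusted p = 0.000502), as Phvul.008G144500 did. The REF genes Phvul.001G261800 and Phvul.006G186300 were the abundant droplet-list members of pods, with means of 132 ± 38.4 and 202 ± 60.8 TPM at 20 DAF and 69.0 ± 37.1 and 126 ± 35.0 TPM at 10 DAF, differences that did not pass (adjusted p = 0.168 and 0.358). The 3-beta hydroxysteroid dehydrogenase Phvul.011G053200, an enzyme of another kind, averaged 14.4 ± 6.86 TPM in grain at 20 DAF and 25.4 ± 11.3 TPM at 10 DAF without passing (adjusted p = 0.135).

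In pods the list had calls in both directions. At 20 DAF against 10 DAF, 2 of 19 genes were called higher and 3 lower, against 5.38% and 6.72% of all genes (median 0.20, against 0.10 over all genes). Besides Phvul.003G177800, the gene called higher was the caleosin-related Phvul.003G020700, with 0.112, 0.072 and 0.990 TPM in the 10 DAF pods, 24.7, 7.44 and 0.970 TPM in the 15 DAF pods and 52.2, 3.10 and 16.8 TPM in the 20 DAF pods (log2 difference 3.56, adjusted p = 0.00341). Its libraries spread widely, and those of 15 DAF overlapped both other stages. Besides Phvul.008G144500 and Phvul.L001946, Phvul.002G285200 was called lower (log2 difference -1.72, adjusted p = 0.0062).

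No tested gene listed under triacylglycerol assembly, desaturases or lipid breakdown was called higher in grain at 20 DAF against 10 DAF on the deposited scale. These lists were matched by description, so they are not limited to enzymes of storage oil. Of 26 tested genes of triacylglycerol assembly, 12 were called lower in grain at 20 DAF against 10 DAF by limma, and none higher, also at an unadjusted p under 0.05 (median -0.90, against -1.08 over all genes). Over all genes 52.9% were called lower and 2.67% higher, so the count lower is near that of genes at large. Median-ratio scaling left 1 higher and 4 lower of 26, against 8.39% and 16.7% of all genes. The diacylglycerol acyltransferase family member Phvul.003G272500, from the enzymes that complete the triacylglycerol, averaged 29.3 ± 3.73, 10.3 ± 1.74 and 16.7 ± 8.32 TPM in grain at 10, 15 and 20 DAF (adjusted p = 0.106 for 20 DAF against 10 DAF). GPAT8 (Phvul.010G099700), an acyltransferase known in Arabidopsis for cutin synthesis, fell to 2.08 ± 0.234 TPM at 20 DAF, against 33.6 ± 11.8 TPM at 10 DAF (log2 difference -3.44, adjusted p = 1.41e-05).

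Of 14 desaturases, 7 were called lower in that comparison by limma and none higher at either p (median -0.996), again near the 52.9% of all genes called lower. After median-ratio scaling 3 were higher and 2 lower, against 8.39% and 16.7% of all genes. The stearoyl-ACP desaturase Phvul.001G064100, which makes the first double bond of fatty acids, was abundant in grain at every stage, with 594 ± 187, 677 ± 115 and 422 ± 185 TPM at 10, 15 and 20 DAF, and it averaged no more than 5.43 TPM in pods. Its difference of -0.53 did not pass (adjusted p = 0.434). FAD2 (Phvul.001G142100), the oleate desaturase, averaged 42.9 ± 20.1 TPM in grain at 20 DAF, against 120 ± 32.0 TPM at 10 DAF, and fell by 1.56 (adjusted p = 0.00308). The gene with the largest fall was DES-1-LIKE Phvul.006G187100, by 2.71 (adjusted p = 3.61e-06).

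Lipid breakdown genes had 4 of 6 called lower by limma, where 52.9% of all genes were, and none higher at either p (median -1.30). After median-ratio scaling none was called in either direction, where 8.39% of all genes were called higher and 16.7% lower. The patatin-like PLP9 genes Phvul.001G151400 and Phvul.007G172300 averaged 6.06 ± 2.53 and 5.84 ± 5.52 TPM in grain at 20 DAF and 27.8 ± 7.50 and 16.3 ± 5.15 TPM at 10 DAF.

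Regulators of seed maturation had calls in both directions. Of 10 tested, 2 were called higher in grain at 20 DAF against 10 DAF and 5 lower, with a median of -1.60, and after median-ratio scaling 4 were higher and 4 lower. Over all genes 2.67% were called higher and 52.9% lower as deposited, and 8.39% and 16.7% after scaling. The 2 called higher were Phvul.001G189400 and Phvul.007G229600, both described as ABI5, a bZIP factor of abscisic acid response in seeds. Phvul.007G229600 averaged 90.6 ± 61.3 TPM at 20 DAF, against 5.998 ± 2.30 TPM at 10 DAF, a difference of 3.48 on the log2 scale (adjusted p = 1.13e-05). NF-YB6 (Phvul.003G087000), the LEC1-like subunit of early seed maturation, fell to 61.7 ± 43.8 TPM, against 619 ± 149 TPM at 10 DAF (log2 difference -3.56, adjusted p = 1.06e-06). Another ABI5 gene, Phvul.005G124200, averaged 678 ± 75.5 TPM at 20 DAF, against 429 ± 194 TPM at 10 DAF, and did not pass (log2 difference 0.78, adjusted p = 0.0753).

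In young pods Phvul.007G229600 averaged 6.96 ± 2.48 TPM, against 0.116 ± 0.201 TPM at 20 DAF, and it fell by 2.80 on the log2 scale (adjusted p = 0.000727), so that, like Phvul.008G144500, it was called lower in older pods and higher in older grain. ABI3 (Phvul.008G122100), a B3-domain activator of maturation genes, averaged 122 ± 49.2, 233 ± 24.4 and 113 ± 5.32 TPM in grain at 10, 15 and 20 DAF and at most 0.157 TPM in any pod group.

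**Figure D5:**
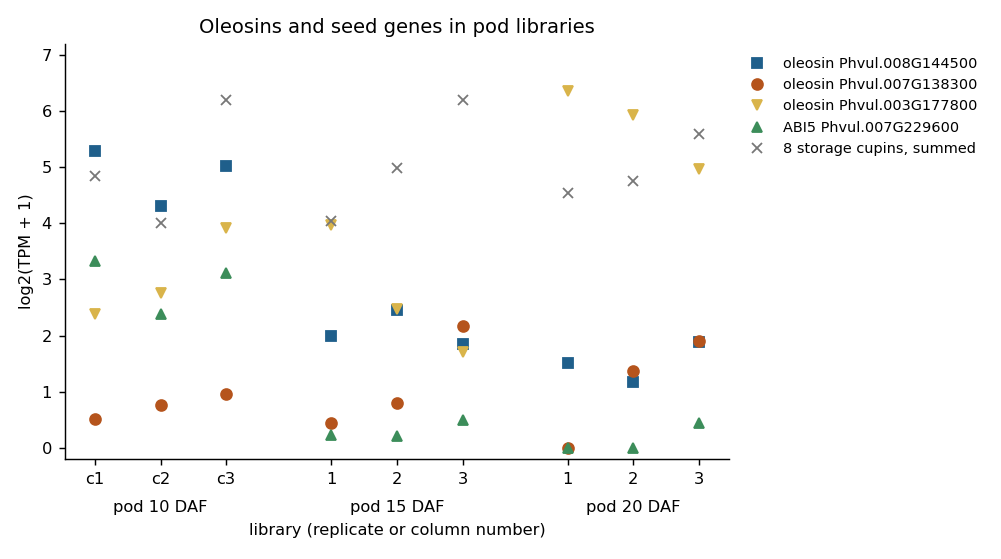
Level, as log2(TPM + 1), in the 9 pod libraries (points) of the 2 main oleosins, the oleosin Phvul.003G177800, the ABI5 gene Phvul.007G229600 and the sum of the 8 storage cupins. Phvul.008G144500 lay at 18.8 to 38.3 TPM in the 10 DAF libraries and at 1.25 to 4.52 TPM in the later ones, while Phvul.003G177800 was at 30.3 to 80.9 TPM at 20 DAF.

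Profiles most like those of the 2 oleosins were ranked by Pearson's r of log2(TPM + 1) among about 8411 described genes that averaged at least 20 TPM in a group, as a description without a test, since the points share their libraries, tissues and stages. Over all 18 libraries Phvul.007G138300 was closest to the phytocystatin CYS2 (Phvul.001G264400, r = 0.996), a papain family protease (Phvul.007G099600, r = 0.994), the defensin-like PDF2.1 (Phvul.002G278400, r = 0.994), a cupin superfamily member (Phvul.002G027900, r = 0.993) and the seed aquaporin TIP3;1 (Phvul.004G136000, r = 0.992). Each of these 5 was above 297 TPM in every grain group mean and under 5 TPM in every pod group mean.

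The profile of Phvul.008G144500 was shared less closely. Its nearest over 18 libraries were the ABI5 gene Phvul.001G189400 (r = 0.977), the bZIP factor Phvul.001G188300 (r = 0.971), OMT1 (Phvul.009G259200, r = 0.970), RGP2 (Phvul.004G041600, r = 0.969) and a Rossmann-fold protein (Phvul.007G180800, r = 0.969). Among these, Phvul.001G189400 averaged 222 TPM in grain at 20 DAF and 33.8 TPM at 10 DAF, and 0.804 TPM in pods at 20 DAF and 2.78 TPM at 10 DAF. The 2 oleosins correlated with each other at r = 0.941, rank 96 from Phvul.007G138300 and rank 55 from Phvul.008G144500.

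Within grain the 2 genes were close neighbours. Over the 9 grain libraries they correlated at r = 0.991, rank 2 of 8409 from Phvul.007G138300 and rank 7 from Phvul.008G144500. The late embryogenesis abundant (LEA) gene Phvul.007G225200, of a family linked to desiccation tolerance, was first for both, with r = 0.992 for Phvul.007G138300 and r = 0.997 for Phvul.008G144500. It averaged 96.8, 956 and 2697 TPM at 10, 15 and 20 DAF. The next for Phvul.007G138300 were BAG1 (Phvul.003G212500, r = 0.990), Phvul.007G180800 (r = 0.989) and the dehydrin Phvul.009G005300 (r = 0.985). For Phvul.008G144500 they were the DUF1264 protein Phvul.006G170000 (r = 0.996), Phvul.007G180800 (r = 0.995), a potato inhibitor I family member (Phvul.005G032000, r = 0.993) and ECP63 (Phvul.003G121900, r = 0.993). These 9 points fall into 3 stages, so any gene that rises steadily with stage scores high.

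Set against the storage proteins, the oleosins were relatively highest in the youngest grain and lowest at 15 DAF. The 2 oleosins summed to 1758, 525 and 294 TPM for each 1000 TPM of the 8 storage cupins in grain at 10 DAF, to 26.2, 24.4 and 33.8 at 15 DAF and to 62.2, 69.7 and 43.7 at 20 DAF. The libraries of the 3 stages did not overlap in this quotient. The cupin sum was 157, 1209 and 2274 TPM in the 10 DAF libraries, 133780, 101396 and 82544 TPM in those of 15 DAF and 119809, 102221 and 135265 TPM in those of 20 DAF. Its 15 and 20 DAF libraries overlapped, while those of the oleosins did not. The difference between the 2 courses was not tested.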

How the data were processed

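RNA was extracted with TRIzol and libraries were prepared with a SMARTER kit from 1 µg, per the labels' protocols. The series text counts 4 periods but the sample labels 3 stages, and the labels were followed. The authors deposited TPM for 27420 genes in 18 libraries; no aligner, counting tool or genome build is given in the sources used. No depth can be read from TPM. The gene table at hand matched 0 of the 2 identifiers, so no coordinates or sequences are given.

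The 2 genes and all lists were chosen with earlier results of these data known. Lists are search patterns on the deposited descriptions; 4644 genes have none. One limma fit (version 3.58.1, R 4.3.3) of 6 group means with 12 residual degrees of freedom used log2(TPM + 1) for the 19861 genes reaching 1 TPM in 3 or more libraries, with an intensity trend and Benjamini-Hochberg adjustment over all of them. Named were both oleosins, every droplet-list gene reaching 5 TPM in a group, of each other list the 2 highest in grain and the largest called difference each way, and the 5 most similar profiles. The fit was tested on simulated data. Alternatives were another pseudocount, other filters and scalings, leaving out the 50 most abundant genes, fits on only the groups compared, no minimum difference, no trend, each library left out and a replicate block.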

Additional observations from a re-analysis of the deposited data

Results flagged for a closer look

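The difference of 20 DAF against 10 DAF was larger in grain than in pod for both oleosins, by a test of the difference itself. For Phvul.007G138300 the excess was 3.22 on the log2 scale, with a difference of 3.57 in grain and of 0.34 in pod (adjusted p = 0.00108 in limma), and for Phvul.008G144500 it was 7.50, with 4.15 in grain and -3.35 in pod (adjusted p = 1.67e-08). Of all genes tested, 3.69% had a difference called higher in grain. In 3 of 3 grain libraries at 20 DAF both genes lay above every grain library at 10 DAF, and in 3 of 3 pod libraries at 20 DAF Phvul.008G144500 lay below every pod library at 10 DAF. The share of all genes that separate in this way was not counted.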

How the results depend on the processing

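Over 29 settings, 555 of 572 values for the 2 genes kept their direction and side of the threshold. The exceptions were these. Phvul.008G144500 in grain at 20 DAF against 15 DAF passed with a 5 TPM filter (1.17, adjusted p = 0.0468), median-ratio scaling (1.59), equal column sums (1.06), the 50 most abundant genes left out (1.33), no trend (1.17) and, chosen after seeing the data, the 3 libraries standing apart left out (1.26), and without grain 10 DAF replicate 1, pod 10 DAF c2, pod 15 DAF replicate 3 or pod 20 DAF replicate 2 (1.06 to 1.34 over all libraries left out). Phvul.008G144500 in pods at 15 DAF against 10 DAF kept -2.77 but not the call when only those groups were fitted, where 0 of 19861 genes were called in either direction. Phvul.007G138300 in pods changed sign: without the libraries standing apart it was -0.12 at 15 DAF against 10 DAF and 0.47 at 20 DAF against 15 DAF. Leaving out each library gave -0.065 to 0.889 (20 DAF against 10 DAF, negative without pod 20 DAF replicate 3), -0.12 to 0.74 (15 DAF against 10 DAF, negative without pod 15 DAF replicate 3) and -0.46 to 0.49 (20 DAF against 15 DAF, positive without pod 15 DAF replicate 3 or pod 20 DAF replicate 1). The ratio in pods was 3.91 with 0.1 TPM added, and left-out libraries gave 3.37 to 4.24 there and 0.614 to 0.849 in grain. Of 19 oil body genes, calls in grain numbered 8 at 15 DAF against 10 DAF (5 with 0.1 TPM added) and 5 at 20 DAF against 15 DAF (2 with those groups alone, 2 to 6 over left-out libraries). Of all 19861 genes, 379 were called higher and 6842 lower in the first comparison (413 and 7903 with 0.1 TPM added). In the second, 178 were called higher and 1002 lower (29 and 229 with those groups alone). In pods the calls of oil body genes numbered 5 at 20 DAF against 10 DAF (2 with those groups alone), 2 at 15 DAF against 10 DAF (0 alone, 5 without the libraries standing apart, 1 to 3 over left-out libraries) and 1 at 20 DAF against 15 DAF (0 alone, 0 to 3 over left-out libraries). Of all genes, 1069 were called higher and 1335 lower in the first of these (156 and 238 alone). The second had 299 higher and 1043 lower, the third 221 higher and 103 lower, and both had 0 alone. With a replicate block the oil body count in pods at 20 DAF against 15 DAF was 2, where 333 of all genes were called higher and 138 lower. The block changed no call of the 2 main oleosins. Deviations of same-numbered libraries from their group means had r = -0.165 to 0.237 over 30 pairs, 9 above 0.1. Between grain and pod of the same number r was 0.220, -0.024 and 0.193 at 15 DAF (replicates 1, 2 and 3). At 20 DAF it was -0.0085, -0.029 and 0.0060. Whether the numbers pair the samples cannot be told from these values. No block was fitted where pod 10 DAF entered. The cause of these changes was not tested. Depth is unknown, so pod values near 1 TPM carry an unknown counting error.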

Other observations

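In pods, the genes whose profile was most like that of Phvul.008G144500 included a lipoxygenase pair and an expansin. This ranking, over 9 pod libraries and 7206 candidates, was chosen after the values had been seen and is a description. The first 5 were the lipoxygenase LOX1 (Phvul.010G134900, r = 0.990), a lipid-transfer and 2S albumin superfamily member (Phvul.003G169100, r = 0.987), the expansin EXPA1 (Phvul.008G037500, r = 0.985), the glycosyltransferase UGT72B1 (Phvul.010G042600, r = 0.984) and a second LOX1 gene (Phvul.005G156800, r = 0.983). Lipoxygenases oxidise polyunsaturated fatty acids and expansins loosen cell walls. The first LOX1 gene averaged 301, 3.34 and 1.62 TPM in pods at 10, 15 and 20 DAF and did not exceed 0.356 TPM in any grain group, and EXPA1 averaged 413, 13.2 and 5.04 TPM in pods at those stages and 324 and 23.5 TPM in grain at 10 and 15 DAF. Of the seed genes examined, the ABI5 gene Phvul.007G229600 (r = 0.982) and REF Phvul.L001946 (r = 0.979) were closest to Phvul.008G144500 in pods. The other tested regulators had r between -0.380 (Phvul.003G069000) and 0.825 (Phvul.002G229800), with 0.776 and 0.0597 for the ABI5 genes Phvul.001G189400 and Phvul.005G124200. The 8 storage cupins had r between -0.0445 and 0.437, and Phvul.007G138300 had r = -0.265.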
